A study of Mus musculus with 24 samples.

Results

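The 39 mouse Hox genes of the 4 clusters were followed through the response of C2C12 cells to differentiation medium and to low oxygen. They are the rows of the deposited gene table whose symbol is Hoxa, Hoxb, Hoxc or Hoxd followed by a paralog number, 39 of 24043 rows, with 11 in the Hoxa, 10 in the Hoxb, 9 in the Hoxc and 9 in the Hoxd cluster. C2C12 is an established myoblast line derived from adult mouse thigh muscle, and all groups come from this 1 line. Cells were grown in growth medium (GM, with fetal bovine serum) or in differentiation medium (DM, with horse serum and an ITS supplement), each at 21% oxygen (NOR, normoxia) or 2% oxygen (HYP, hypoxia). Each of the 4 groups has 2 RNA-seq libraries, A and B, which the series calls biological replicates. The labels give neither the number of days in differentiation medium nor whether A and B were separate thaws, so p-values measure the spread between these libraries.

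Hox genes encode homeodomain transcription factors that give cells along the body axis and the limbs their position. Within a cluster the genes stand in the order of their paralog numbers, and low-numbered genes act further towards the head than high-numbered ones, while genes with the same number in different clusters (paralogs) descend from 1 ancestral gene. Their proteins bind DNA together with TALE homeodomain cofactors of the Pbx, Meis and Pknox families, and cells keep a clustered on or off state through Trithorax and Polycomb complexes, the latter marking silent clusters with H3K27me3.

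Promoters of 2 paralog pairs are shown because one cluster of each pair was expressed in these cells and the other was not. The sequences are the 250 bases before the annotated start in RefSeq (GRCm38.p6, whereas the deposited table was made on mm9), read 5′ to 3′ on the gene's strand, with each CG dinucleotide in capitals. Hoxa9 is at chr6:52227371-52227620 on the minus strand, Hoxa10 (the one of its 2 listed starts that lies further upstream) at chr6:52240855-52241104 on the minus strand, Hoxd9 at chr2:74697513-74697762 on the plus strand and Hoxd10 at chr2:74691641-74691890 on the plus strand.
Hoxa9: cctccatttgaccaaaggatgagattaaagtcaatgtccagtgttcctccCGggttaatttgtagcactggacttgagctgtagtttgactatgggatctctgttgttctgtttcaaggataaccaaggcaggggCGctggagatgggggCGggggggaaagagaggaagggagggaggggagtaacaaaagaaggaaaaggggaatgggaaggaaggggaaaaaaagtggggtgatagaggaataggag
Hoxa10: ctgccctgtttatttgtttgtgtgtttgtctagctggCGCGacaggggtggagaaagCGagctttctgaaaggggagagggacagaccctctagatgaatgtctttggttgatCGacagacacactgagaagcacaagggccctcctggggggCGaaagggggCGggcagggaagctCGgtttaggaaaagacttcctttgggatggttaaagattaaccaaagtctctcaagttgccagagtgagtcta
Hoxd9: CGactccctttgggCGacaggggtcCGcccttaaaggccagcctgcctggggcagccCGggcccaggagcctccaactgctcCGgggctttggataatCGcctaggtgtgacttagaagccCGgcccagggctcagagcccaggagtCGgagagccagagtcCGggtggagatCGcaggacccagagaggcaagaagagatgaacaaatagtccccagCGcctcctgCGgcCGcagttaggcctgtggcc
Hoxd10: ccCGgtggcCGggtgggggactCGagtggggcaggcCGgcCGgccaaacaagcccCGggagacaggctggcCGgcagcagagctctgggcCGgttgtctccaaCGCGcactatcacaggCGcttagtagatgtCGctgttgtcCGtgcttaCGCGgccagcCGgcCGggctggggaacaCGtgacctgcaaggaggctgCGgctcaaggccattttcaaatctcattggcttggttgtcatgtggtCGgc
The shown Hoxa9 window holds 3 CG dinucleotides and that of Hoxa10 holds 7, against 13 for Hoxd9 and 20 for Hoxd10. At the other listed start of Hoxa10 the window holds 20, as many as that of Hoxd10. Windows of the same 250 bases before a start were found for 22 of the 39 genes. The 11 windows of 10 expressed Hox genes held a median of 13 CG (3 to 35), and the 13 windows of 12 genes not expressed held a median of 12 (2 to 31), with a median of 6 over 32851 windows of all genes. The ranges of the expressed and the silent windows overlapped almost whole. All expressed windows but that of Hoxc4 were from Hoxa genes, and most silent ones were from Hoxd genes. The other expressed Hoxc genes and most Hoxb genes are thus not covered. The letters CAGCTG, searched on both strands as a form of the E-box that MyoD binds, occurred in 3 of the 11 expressed windows (Hoxa3, Hoxa5 and Hoxa6), in 0 of the 13 others and in 13% of all windows. The core ACGTG of the hypoxia response element, also on both strands, occurred in 1 of 11 (Hoxa11), in 4 of 13 and in 16.6% of all windows. A combined Pbx and Hox site, TGATTGAT on either strand, was in 1 window of each set (Hoxa2 and Hoxd11) and in 0.670% of all. These are matches of letters in a short window and were not tested as sites.

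Depth was read from the smallest FPKM steps of low genes, where FPKM is the number of fragments scaled to transcript length and to all mapped fragments. The 8 libraries lay between 0.633 and 1 of the deepest one. Replicates correlated at a Pearson's r of 0.958 to 0.983 on the log2 scale, lowest in hypoxic differentiation medium. In that group the 20 cell cycle genes of a list summed to 235 FPKM in library A and 810 in library B, against 359 to 630 in growth medium and 184 to 192 in normoxic differentiation medium. Myoblast markers (Myod1, Myf5, Myog, Des, Cdh15 and Chrna1) were above 0 in all libraries. They summed to 462 to 549 FPKM in normoxic growth medium and 3526 to 3581 in normoxic differentiation medium. In hypoxia the sums were 126 to 130 in growth medium and 88.6 to 126 in differentiation medium. Myog made up most of the sum in normoxic differentiation medium, at 2576 and 2642 FPKM. It stood at 0.342 and 0.442 FPKM in hypoxic growth medium and at 4.49 and 2.14 in hypoxic differentiation medium. Differentiation in hypoxia below names the change of medium and not a state reached by the cells. None of the 4 endothelial, 4 neural or 4 adipocyte markers reached 1 FPKM in a group. Among 4 leukocyte markers, Cd68 alone did, with 25.8 and 42.8 FPKM in hypoxic differentiation medium against 1.76 to 3.57 elsewhere, while Emr1 was at 0 in every library and Ptprc reached 0.0137. Krt14 (up to 3.49 FPKM) and Bglap (93.1 and 75.5 FPKM in normoxic differentiation medium, up to 6.66 elsewhere) were the epithelial and bone markers that passed 1 FPKM. In bulk RNA, fewer cells of a type and less RNA per cell cannot be told apart.

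Hox expression in C2C12 cells was confined to the Hoxa and Hoxc clusters at a threshold of a group mean of 1 FPKM. In all, 19 of 39 Hox genes reached it in at least 1 group, against 51.5% of all genes in the table. Of the Hoxa genes 10 of 11 did, with the exception of Hoxa4, and of the Hoxc genes 9 of 9. None of the 10 Hoxb and none of the 9 Hoxd genes did. The gap at the threshold was wide. Hoxc12 was the lowest gene inside it with a highest group mean of 1.87 FPKM, Hoxa4 the highest outside it with 0.693, and Hoxb9 came next with 0.173.

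The count of Hox genes at 1 FPKM differed between the groups. There were 19 in normoxic growth medium (47.1% of all genes), 15 in normoxic differentiation medium (46.5%), 18 in hypoxic growth medium (47.1%) and 18 in hypoxic differentiation medium (46.7%). In all 4 groups 14 did so, 7 of each cluster. Those under 1 FPKM in normoxic differentiation medium were Hoxa2, Hoxa6, Hoxa13 and Hoxc8, and in both hypoxic groups it was Hoxc12. Without library A of hypoxic differentiation medium its count was 17 because Hoxa2 stood at 0.867 FPKM in library B. The order of the groups depended on the threshold and the setting. With both libraries required at 1 FPKM the counts were 18, 15, 18 and 17, in the order of groups above. Under median-of-ratios scaling they were 18, 15, 18 and 18. At a group mean of 2 FPKM the counts were 16, 11, 17 and 15 in the same order of groups, and at 0.5 FPKM they were 19, 19, 18 and 19.

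**Figure D1:**
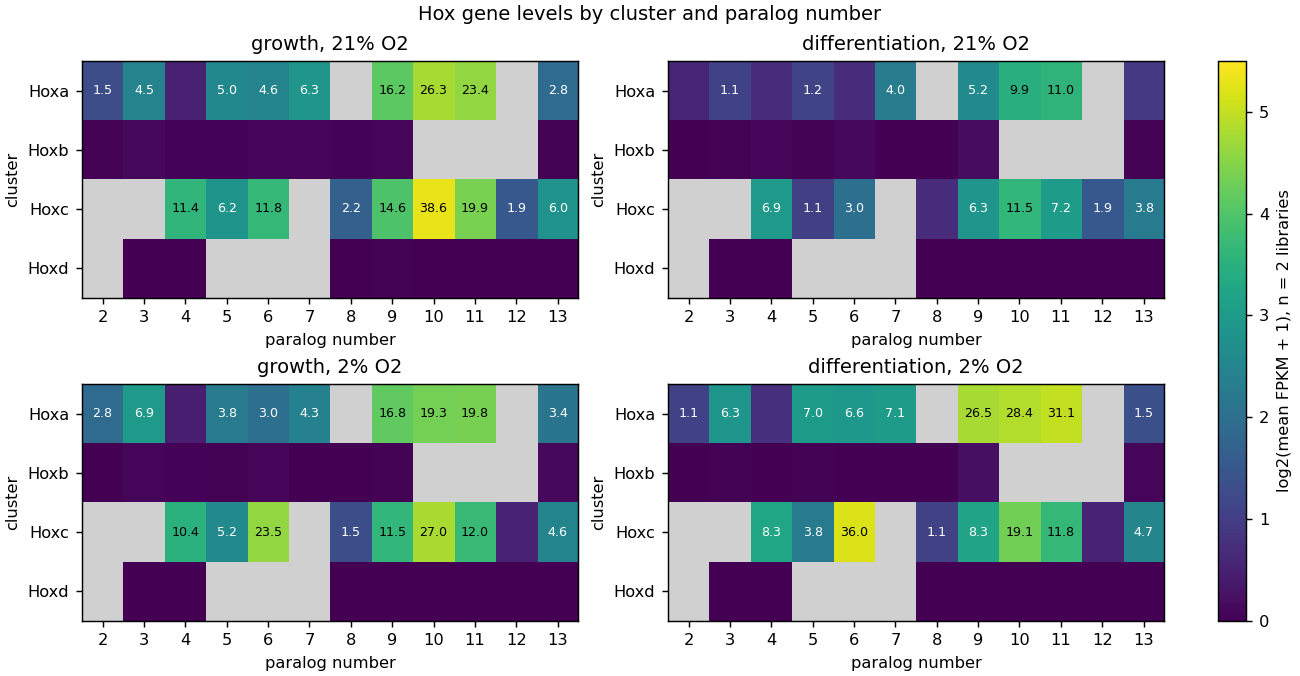
Each panel is 1 group, with clusters in rows and paralog numbers 2 to 13 in columns, colour for the log2 of the mean FPKM of 2 libraries plus 1, the mean printed where it is at least 1 FPKM, and grey where the mouse has no such gene. Means of 1 FPKM or more are printed in the Hoxa and Hoxc rows alone, where Hoxa4 has none, Hoxa2, Hoxa6, Hoxa13 and Hoxc8 have none in normoxic differentiation medium and Hoxc12 has none in either hypoxic group. The Hoxb and Hoxd rows stay dark, with a highest group mean of 0.173 FPKM.

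The silent clusters reached at most 0.191 FPKM in a library. Low values are whole multiples of what 1 fragment is worth. For 10 of the 11 Hoxb and Hoxd genes above 0, the smallest whole numbers that fit (within 0.06) were taken as fragments. These are lower limits, because multiples of them may fit as well. Hoxb2, Hoxb7 and Hoxd13, above 0 in 1 library each, count as 1 by construction. The 8 Hoxb genes so resolved held at least 70 fragments over the 8 libraries, 34 of them counted for Hoxb9. Its counts were 2 and 3 in normoxic growth medium and 7 and 4 in differentiation medium at 21% oxygen. In hypoxia they were 2 and 0 in growth medium and 9 and 7 in differentiation medium. Hoxb9, whose protein patterns the thorax, had the most fragments among these 8 genes by this count. For Hoxb9 both differentiation media lay above both growth media, at levels below the filter of the fit. Fragments of Hoxb3, which was above 0 in 6 libraries, could not be resolved. The whole Hoxd cluster held at least 4 fragments, counted as 3 of Hoxd9 and 1 of Hoxd13. Hoxb1 and 7 Hoxd genes (Hoxd1, Hoxd3, Hoxd4, Hoxd8, Hoxd10, Hoxd11 and Hoxd12), 8 genes in all, were listed at 0 in every library, which allows up to 3 fragments per library. For the 10 resolved genes 3 fragments amount to at most 0.0518 to 0.384 FPKM, depending on the gene and the library. The upper end is that of Hoxb7, and a higher true count would make 1 fragment worth less. This limit covers counting error alone. The 8 housekeeping genes looked at were above 0 in every library. Hoxa4, in the middle of an expressed cluster, lay between 0.271 and 0.716 FPKM and was above 0 in all 8 libraries. It overlaps Hoxa3 in RefSeq, so part of its reads may be shared.

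Within the Hoxa cluster the levels were highest from Hoxa9 to Hoxa11. Hoxa9, a regulator of blood progenitors and of the posterior trunk, stood at 16.0 and 16.4 FPKM in normoxic growth medium, 5.75 and 4.68 in differentiation medium at 21% oxygen, 18.3 and 15.2 in hypoxic growth medium, and 29.0 and 24.0 in hypoxic differentiation medium. Hoxa10, which patterns the lumbar region and the uterus, stood at 27.4 and 25.3, at 10.9 and 8.92, at 20.4 and 18.2, and at 33.3 and 23.4 FPKM in the same order of groups. For Hoxa11, needed for the forearm and lower leg, the values were 25.2 and 21.5, 11.5 and 10.5, 19.7 and 20.0, and 31.4 and 30.8 FPKM. In these 3 genes both libraries of normoxic differentiation medium were the lowest of the 8, and for Hoxa9 and Hoxa11 both libraries of hypoxic differentiation medium were the highest. Hoxa10 was split there, with library B below both libraries of normoxic growth medium.

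The middle of the cluster showed the same order at lower levels. Hoxa5, which acts in the neck and the lung, stood at 5.16 and 4.75 FPKM in normoxic growth medium, 1.25 and 1.11 in differentiation medium at 21% oxygen, 3.82 and 3.74 in hypoxic growth medium, and 8.04 and 5.86 in hypoxic differentiation medium. Hoxa6, a gene of the upper thorax, had 3.40 and 5.83, 0.512 and 0.715, 2.26 and 3.75, and 7.26 and 5.94 FPKM. Hoxa7, also a thoracic gene, had 6.15 and 6.44, 3.69 and 4.41, 4.32 and 4.34, and 7.18 and 6.94 FPKM. In all 3 the 2 libraries of hypoxic differentiation medium were the highest of the 8. The normoxic differentiation libraries were the lowest for Hoxa5 and Hoxa6, while library B of that group lay above both hypoxic growth libraries for Hoxa7.

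Hoxa2, Hoxa3 and Hoxa13 followed other orders. Hoxa2, a gene of the hindbrain and the branchial arches, had 1.70 and 1.25 FPKM in normoxic growth medium, 0.643 and 0.320 in differentiation medium at 21% oxygen, 3.27 and 2.29 in hypoxic growth medium, and 1.34 and 0.867 in hypoxic differentiation medium. Hoxa3, needed for the thymus and parathyroid, had 4.99 and 4.05, 1.05 and 1.10, 6.50 and 7.25, and 6.83 and 5.79 FPKM. Hoxa2 was lower in differentiation than in growth medium at either oxygen level with no overlap, whereas the hypoxic libraries of Hoxa3 overlapped. Hoxa13, at the far end and needed for the digits, had 2.70 and 2.91, 0.973 and 0.776, 3.73 and 3.02, and 1.91 and 1.17 FPKM, with both growth media above both differentiation media.

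**Figure D2:**
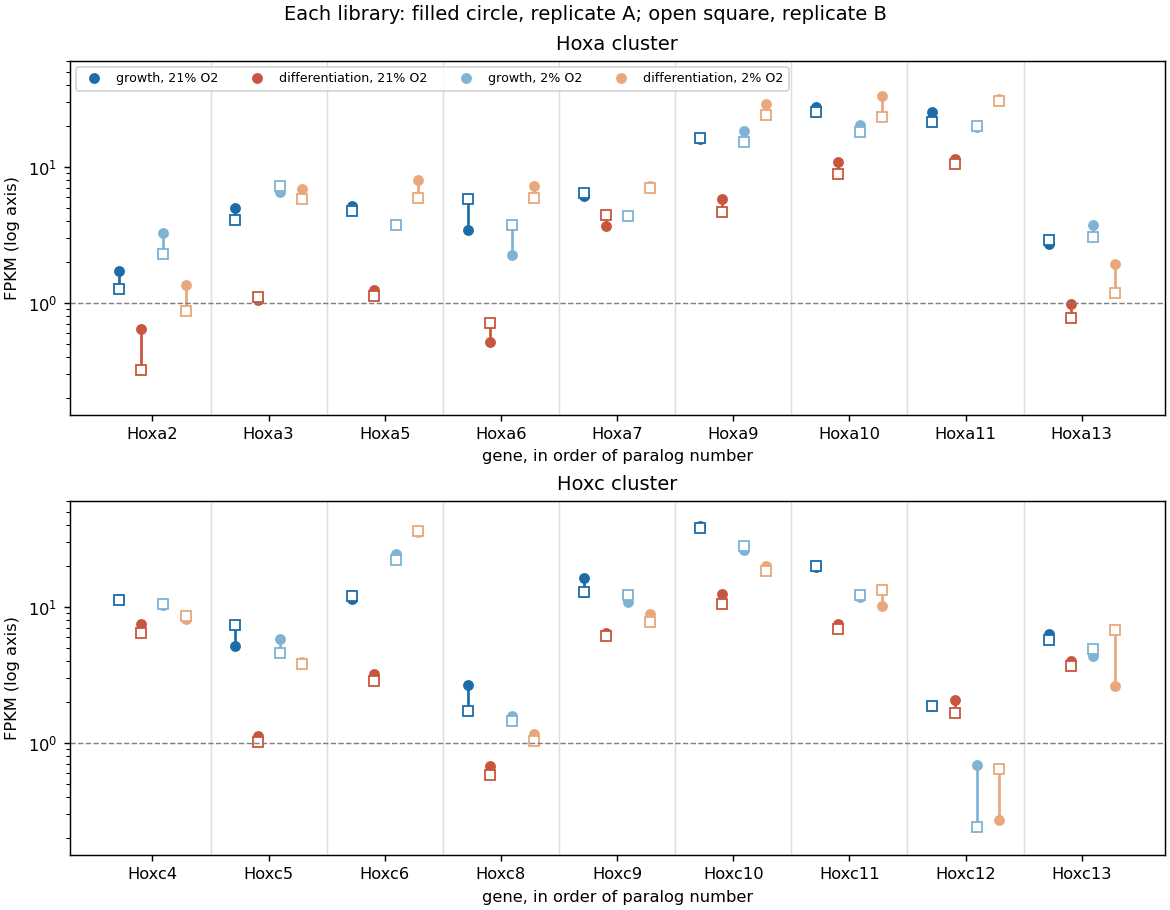
Values in FPKM on a log axis of 9 Hoxa and 9 Hoxc genes that reach 1 FPKM, in order of paralog number, with 1 symbol per library (circle for A, square for B) and the dashed line at 1 FPKM. Normoxic differentiation medium (red) lies lowest for most genes, and hypoxic differentiation medium (orange) stands highest for Hoxa5 to Hoxa7, Hoxa9, Hoxa11 and Hoxc6.

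In the Hoxc cluster Hoxc10 was the most abundant Hox gene of normoxic growth medium. This gene of the lumbar spinal cord and hindlimb stood at 39.5 and 37.8 FPKM there, at 12.4 and 10.5 in normoxic differentiation medium, at 26.0 and 28.0 in hypoxic growth medium and at 19.8 and 18.4 in hypoxic differentiation medium. Hoxc11, its neighbour in the hindlimb, had 19.6 and 20.1, 7.48 and 6.88, 11.7 and 12.3, and 10.2 and 13.4 FPKM. Hoxc9, a thoracic gene, had 16.2 and 12.97, 6.46 and 6.15, 10.8 and 12.2, and 8.82 and 7.71 FPKM. For these 3 genes normoxic growth medium held both of the highest libraries and normoxic differentiation medium both of the lowest, and the hypoxic groups lay between.

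Hoxc6 stood apart from its neighbours. This gene of the upper thorax and forelimb level had 11.4 and 12.1 FPKM in normoxic growth medium, 3.23 and 2.83 in differentiation medium at 21% oxygen, 24.7 and 22.3 in hypoxic growth medium, and 35.6 and 36.3 in hypoxic differentiation medium, with no overlap between any of the 4 groups. Among the Hox genes its rank was 7 in both libraries of normoxic growth medium, 10 in normoxic differentiation medium, 2 in hypoxic growth medium and 1 in hypoxic differentiation medium. Hoxc10 held rank 1 in all libraries but these 2 and library B of normoxic differentiation medium, where Hoxa11 did. Hoxc5, which lies next to Hoxc6, had 5.13 and 7.32, 1.12 and 1.02, 5.82 and 4.57, and 3.90 and 3.77 FPKM, and did not share its order.

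The remaining Hoxc genes were Hoxc4, Hoxc8, Hoxc12 and Hoxc13. Hoxc4, a cervical gene also expressed in lymphocytes, had 11.4 and 11.3 FPKM in normoxic growth medium, 7.45 and 6.39 in differentiation medium at 21% oxygen, 10.3 and 10.5 in hypoxic growth medium, and 8.11 and 8.56 in hypoxic differentiation medium. Hoxc8, a gene of the thorax and of forelimb motor neurons, had 2.68 and 1.73, 0.671 and 0.581, 1.57 and 1.44, and 1.15 and 1.04 FPKM. Both had their lowest libraries in normoxic differentiation medium. Hoxc12 had 1.85 and 1.88, 2.08 and 1.66, 0.684 and 0.241, and 0.271 and 0.642 FPKM, with the hypoxic libraries below the normoxic ones in either medium. Hoxc13, needed for hair and nails, had 6.29 and 5.74, 4.02 and 3.66, 4.32 and 4.92, and 2.61 and 6.81 FPKM. Library A of hypoxic differentiation medium was the lowest of the 8 for Hoxc13 and library B the highest, the same 2 libraries that differed in cell cycle genes, and whether one has a part in the other was not tested.

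Differentiation medium in normoxia lowered most of the expressed Hox genes. Differences were tested with limma on log2(FPKM + 1) over the 12389 genes with a group mean of at least 1 FPKM, which include 19 Hox genes, and a gene is called where the Benjamini-Hochberg adjusted p over all of them is under 0.05. Of the 19, 16 fell and 1 rose, against 41.0% of all tested genes called lower, 25.5% called higher and 66.5% in either direction. The median log2 change of the 19 was -1.09, beside -0.20 over all tested genes. After median-of-ratios scaling, which moves the median of all genes to 0.03, 35.0% of genes were higher and 30.3% lower, and 15 Hox genes were still called lower and 1 higher.

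The falls were of like size in both clusters. Medians were -1.18 over 10 Hoxa genes (9 lower, 1 higher) and -1.09 over 9 Hoxc genes (7 lower). Among the steepest falls were those of Hoxc5, with a log2 change of -1.79 ± 0.17 (SE, adjusted p 0.000138), Hoxa6 with -1.77 ± 0.26 (adjusted p 0.000998), Hoxc10 with -1.67 ± 0.10 (adjusted p 1.84e-05) and Hoxc6 with -1.66 ± 0.09 (adjusted p 1.43e-05). In linear FPKM, Hoxa6 was 7.52 times, Hoxc5 5.82 times and Hoxc10 3.37 times as high in normoxic growth medium, so that the order of these genes depends on the pseudocount. Hoxa7 and Hoxc4 showed the smallest called falls, at -0.54 ± 0.11 and -0.65 ± 0.10. The call of Hoxa7 was lost under median-of-ratios scaling (adjusted p 0.0561). Hoxc12 did not change past the threshold (-0.00 ± 0.19, adjusted p 0.996), nor did Hoxc13 (-0.54 ± 0.32, adjusted p 0.185). The call of Hoxa2 was lost without library A of normoxic growth medium (adjusted p 0.0839) or without library B of normoxic differentiation medium (0.0913). The summed cell cycle genes also fell and the summed myoblast markers rose, mostly through Myog, in this comparison. Both sums are given above, and their part in the Hox changes was not tested.

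In hypoxia fewer Hox genes passed the threshold on the same change of medium, and of those that rose 5 lie between Hoxa5 and Hoxa11. There 6 Hox genes rose and 4 fell of 19, against 23.3% of all tested genes higher, 17.6% lower and 40.9% in either direction, with a median of -0.04 beside 0.07 over all genes. Those that rose were Hoxa5 (0.72 ± 0.15), Hoxa6 (0.95 ± 0.26), Hoxa7 (0.60 ± 0.11), Hoxa9 (0.63 ± 0.14), Hoxa11 (0.62 ± 0.10) and Hoxc6 (0.60 ± 0.09), with adjusted p-values from 0.00357 to 0.028. Those that fell were Hoxa2 (-0.84 ± 0.20), Hoxa13 (-0.79 ± 0.17), Hoxc9 (-0.43 ± 0.13) and Hoxc10 (-0.48 ± 0.10), with adjusted p-values from 0.0104 to 0.0398. By cluster, 5 of 10 Hoxa genes rose and 2 fell (median 0.56), and 1 of 9 Hoxc genes rose and 2 fell (median -0.26). The difference between the clusters was not tested. Hoxa10, between 2 genes that rose, had a change of 0.52 ± 0.18 that missed the threshold (adjusted p 0.0564). None of these changes reached 1 on the log2 scale. Fewer Hox genes were called without library A of hypoxic growth medium (5) or without its library B (6), and 11 were called when 1 or the other library of hypoxic differentiation medium was left out. Fitted on the 4 compared libraries alone, 4 were called. Shares of all tested genes were not counted in these runs.

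Several of these calls in hypoxia depended on the setting. Besides the requirement of a log2 change of at least 1, which none met, Hoxa7, Hoxa11 and Hoxc6 passed in every alternative run. Hoxa6 was lost in 8 of 19 alternatives, with adjusted p-values up to 0.149, and Hoxa5 and Hoxa9 in 4 of 19 each. On the 4 compared libraries alone the adjusted p was 0.0649 for Hoxa5, 0.0672 for Hoxa6 and 0.0592 for Hoxa9. The fall of Hoxc9 was lost in 10 of 19 alternatives, among them the fit with the replicate letter as a block (adjusted p 0.0539) and the one with no filter (0.058). The falls of Hoxa2 and Hoxa13 were lost in 4 and 3 of 18 alternatives, and that of Hoxc10 in 3 of 19.

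**Figure D3:**
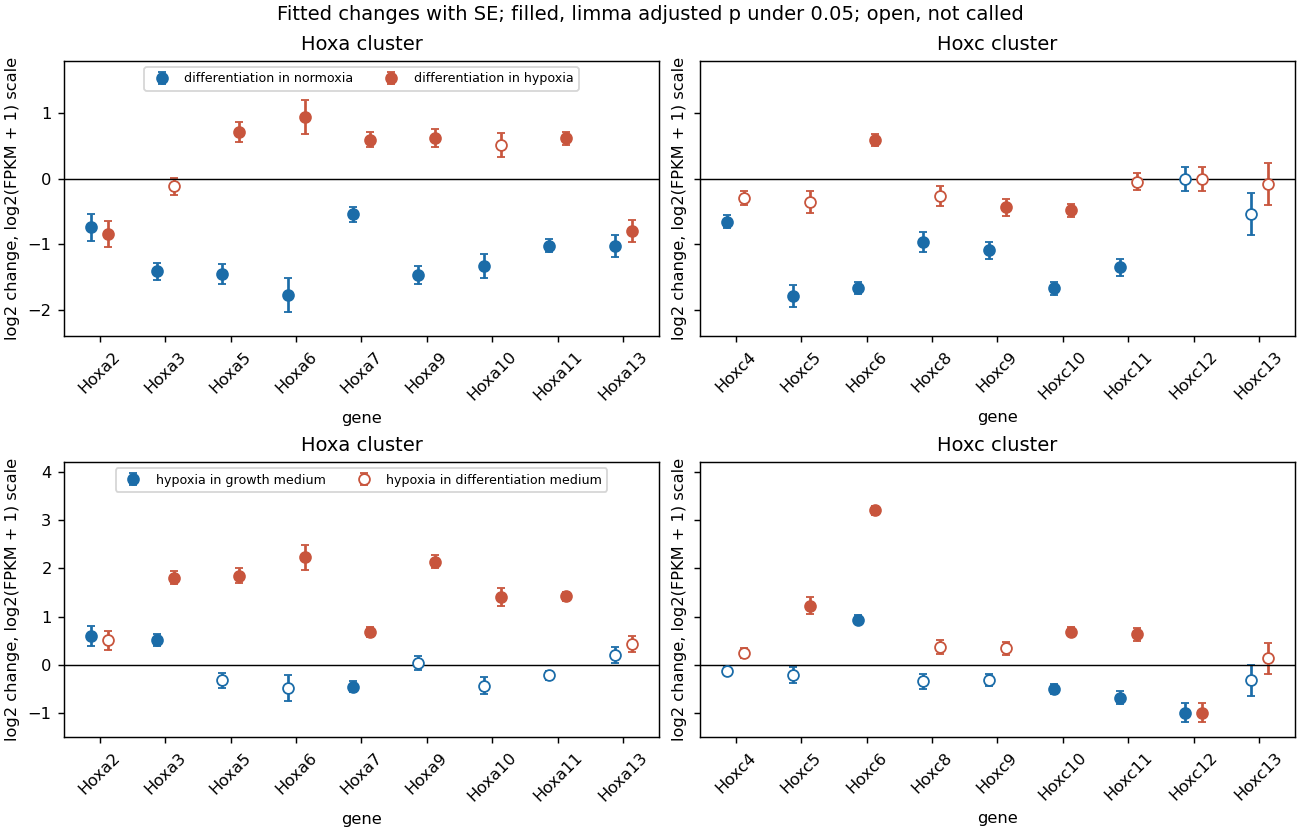
Fitted log2 changes with their standard errors on the log2(FPKM + 1) scale, for 9 Hoxa genes (left) and 9 Hoxc genes (right), on differentiation at each oxygen level (upper row) and on hypoxia in each medium (lower row), filled where limma's adjusted p is under 0.05. On differentiation the blue normoxic points lie at or below 0, while the red hypoxic points lie above 0 for Hoxa5 to Hoxa7, Hoxa9 to Hoxa11 and Hoxc6.

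Low oxygen in growth medium raised Hoxc6 and lowered Hoxc12, with calls that depended more on the setting for Hoxa2, Hoxa3, Hoxa7, Hoxc10 and Hoxc11. In this comparison 4 of 19 Hox genes rose and 4 fell, against 13.5% of all tested genes higher, 28.0% lower and 41.4% in either direction, with a median of -0.31 beside -0.14 over all genes. Among those that rose were Hoxa2 (0.60 ± 0.20, adjusted p 0.0476), Hoxa3 (0.52 ± 0.13, adjusted p 0.0198) and Hoxc6 (0.94 ± 0.09, adjusted p 0.000534). Hoxa7 (-0.45 ± 0.11, adjusted p 0.0149), Hoxc10 (-0.50 ± 0.10, adjusted p 0.00824), Hoxc11 (-0.68 ± 0.13, adjusted p 0.00685) and Hoxc12 (-0.99 ± 0.19, adjusted p 0.0066) fell. The call of Hoxc10 was lost in 3 of 19 alternatives, among them upper-quartile scaling (adjusted p 0.0664), and that of Hoxc11 in 2 of 19. Without library A of hypoxic growth medium the changes of Hoxc10 and Hoxc11 were -0.45 and -0.65. The call of Hoxa2 was lost in 10 of 18 alternatives, among them pseudocounts of 0.1 and 0.5 FPKM (adjusted p 0.101 and 0.0619), no filter (0.0755) and the omission of any 1 library of normoxic growth, normoxic differentiation or hypoxic growth medium (0.0548 to 0.237). Hoxa7 was lost in 6 of 19, among them median-of-ratios and upper-quartile scaling (0.0546 and 0.0815), library B of normoxic growth medium left out (0.0603) and either library of hypoxic growth medium left out (0.0847 and 0.0796). Hoxa3 was lost in 4 of 19, 3 of which left out library B of normoxic growth medium (0.088) or a library of hypoxic growth medium (0.0622 and 0.119).

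Of the 5 comparisons, this count ranged most when 1 library was left out. The share of all tested genes called was not counted in those runs, so a shift of all genes cannot be told from one of the Hox genes. Without library A of hypoxic growth medium 2 Hox genes were called, which were Hoxc6 and Hoxc12, and without library B 5 were. Leaving out 1 or the other library of hypoxic differentiation medium gave 11, and with a minimum group mean of 5 FPKM 5 of the 14 Hox genes then tested were called. Median-of-ratios scaling gave 4 higher and 3 lower against 16.9% and 22.1% of all genes, and upper-quartile scaling gave 4 higher and 2 lower against 19.2% and 19.8%.

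In differentiation medium the hypoxic cells held more Hox RNA than the normoxic cells. Here 12 of 19 Hox genes were higher and 1 lower in hypoxia, against 37.5% of all tested genes higher, 27.7% lower and 65.2% in either direction. Median-of-ratios scaling left the Hox counts at 12 and 1 and turned those of all genes to 30.3% higher and 35.0% lower. The median log2 change was 0.68, beside 0.15 over all genes, or 1.42 for the Hoxa genes (8 of 10 higher) and 0.37 for the Hoxc genes (4 of 9 higher, 1 lower). Hoxc6 differed most, by 3.20 ± 0.09 (adjusted p 8.19e-07), which is 11.9-fold in linear FPKM. Hoxa6 was 10.8-fold higher (2.23 ± 0.26, adjusted p 0.000336), Hoxa9 5.07-fold (2.14 ± 0.14, adjusted p 2.56e-05), Hoxa5 5.89-fold (1.85 ± 0.15, adjusted p 5.4e-05) and Hoxa3 5.87-fold (1.81 ± 0.13, adjusted p 3.76e-05). Hoxa10, Hoxa11 and Hoxc5 were higher by 1.41, 1.42 and 1.23, and Hoxa7, Hoxc10 and Hoxc11 by 0.63 to 0.69. Hoxc12 was lower by as much as in growth medium (-0.99 ± 0.19, adjusted p 0.00331). Without library A of hypoxic differentiation medium 14 Hox genes were called and without library B 17, with the same 13 among them in both cases. Myoblast markers were lower and Cd68 was higher in hypoxic than in normoxic differentiation medium, and their part in the Hox differences was not tested.

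The response of the Hox genes to differentiation medium differed between oxygen levels in 13 of 19 genes. The interaction, the change on differentiation in hypoxia minus that in normoxia, was higher in 13 and lower in 0 Hox genes, against 35.4% of all tested genes higher, 18.7% lower and 54.1% in either direction. The Hox median was 1.19, beside 0.27 over all tested genes. Median-of-ratios scaling, which brings that median to -0.01, gave 11 higher and 0 lower, against 23.9% and 26.6% of all genes, and upper-quartile scaling also gave 11 and 0. Of the 10 Hoxa genes 7 were called (median 1.47), and of the 9 Hoxc genes 6 (median 0.71).

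The differences in response were largest for Hoxa6 (2.71 ± 0.37, adjusted p 0.00116), Hoxc6 (2.26 ± 0.13, adjusted p 3.82e-05), Hoxa5 (2.17 ± 0.21, adjusted p 0.000249) and Hoxa9 (2.10 ± 0.20, adjusted p 0.000255). Hoxa2 (-0.10 ± 0.28) and Hoxa13 (0.23 ± 0.23) did not pass the threshold, and neither did Hoxc4 (0.36 ± 0.14, adjusted p 0.068), Hoxc12 (0.00 ± 0.27) or Hoxc13 (0.46 ± 0.46). The interaction shares its libraries with the other 4 comparisons. Hoxc8 and Hoxc9 were the weakest calls and were lost under both scalings (adjusted p 0.0579 to 0.191) and without either library of normoxic differentiation medium (0.0655 to 0.0889). Without library A of hypoxic growth medium both were lost as well (0.068 and 0.0892), Hoxc8 without its library B (0.0879) and Hoxc9 without library A of normoxic growth medium (0.059).

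Summed over the genes, Hox RNA followed the same course. The 39 genes summed to 205 ± 5.53 FPKM (SD, n = 2) in normoxic growth medium, 79.7 ± 6.41 in normoxic differentiation medium, 179 ± 3.09 in hypoxic growth medium and 213 ± 10.2 in hypoxic differentiation medium. The Hoxa sum went from 92.1 ± 2.82 to 37.1 ± 2.79 in normoxia and from 82.7 ± 3.58 to 119 ± 14.7 in hypoxia. The Hoxc sum went from 113 ± 2.35 to 42.3 ± 3.72 in normoxia and stood at 96.2 ± 0.332 and 93.5 ± 4.34 in hypoxia. Hoxa genes thus made up 44.8% to 47.0% of the Hox sum in 6 libraries, and 58.9% and 52.9% in libraries A and B of hypoxic differentiation medium. These sums weigh abundant genes most and carry no test.

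Between the hypoxic media the Hoxc sum stayed nearly level only with Hoxc6 included. Without it the other 8 Hoxc genes summed to 101 ± 2.77 FPKM in normoxic growth medium, 39.3 ± 3.44 in normoxic differentiation medium, 72.7 ± 1.99 in hypoxic growth medium and 57.6 ± 3.82 in hypoxic differentiation medium. Hoxc paralogs 9 to 13 stood at 81.0 ± 3.53, 30.7 ± 2.55, 55.6 ± 2.82 and 44.3 ± 3.68 FPKM in the same order. Hoxc paralogs 4 to 8 stood at 31.5 ± 1.18, 11.7 ± 1.18, 40.6 ± 2.49 and 49.2 ± 0.663 FPKM. The rise of the latter sum in both hypoxic groups over normoxic growth medium came with Hoxc6, since the group means of Hoxc4, Hoxc5 and Hoxc8 were lower in both.

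**Figure D4:**
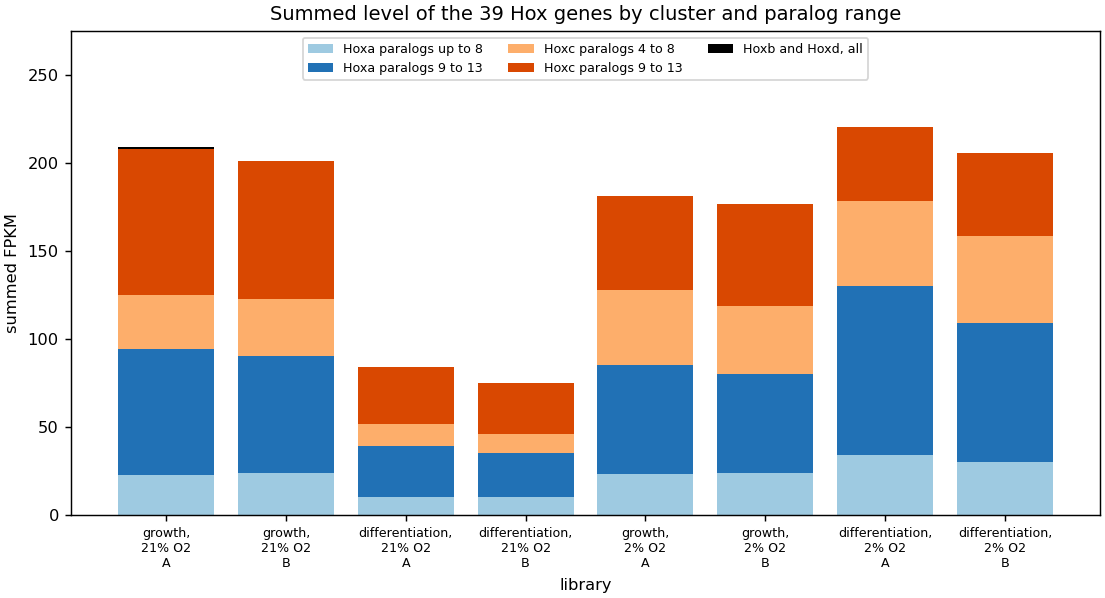
Stacked bars give the summed FPKM of all 39 Hox genes in each of the 8 libraries, divided into Hoxa paralogs up to 8 and 9 to 13, Hoxc paralogs 4 to 8 and 9 to 13, and the Hoxb and Hoxd genes, whose sum is too small to see in most bars. The 2 libraries of normoxic differentiation medium are the lowest, and Hoxa takes the largest share in hypoxic differentiation medium.

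Paralogs of the 2 clusters shifted against each other in hypoxic differentiation medium. Hoxa9 over Hoxc9 was 0.989 and 1.26 in normoxic growth medium, 0.890 and 0.762 in differentiation medium at 21% oxygen, 1.69 and 1.25 in hypoxic growth medium, and 3.29 and 3.11 in hypoxic differentiation medium. Hoxa10 over Hoxc10 was 0.693 and 0.671, 0.878 and 0.849, 0.783 and 0.648, and 1.68 and 1.27. Hoxa11 over Hoxc11 was 1.28 and 1.07, 1.54 and 1.53, 1.67 and 1.63, and 3.10 and 2.30. In these 3 pairs, and in Hoxa5 over Hoxc5 (2.06 and 1.55 there, at most 1.11 elsewhere), both libraries of hypoxic differentiation medium lay above the other 6. Hoxa6 over Hoxc6 did not follow, at 0.204 and 0.164 there and 0.0916 to 0.484 elsewhere, nor did Hoxa13 over Hoxc13, where libraries A and B gave 0.734 and 0.172. Ratios were not tested.

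**Figure D5:**
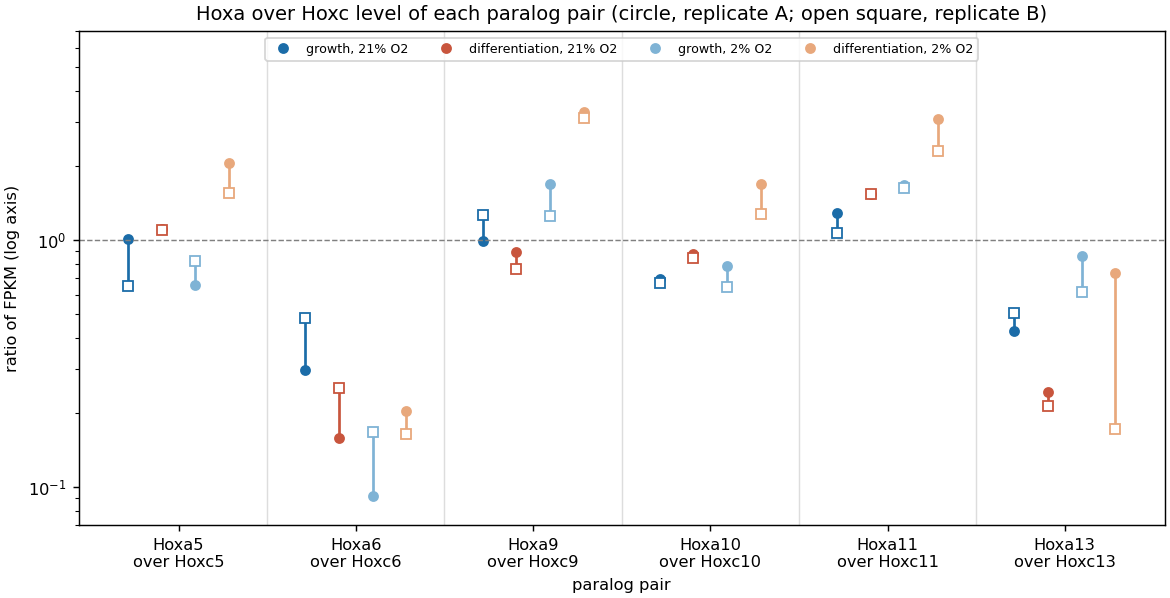
The ratio of the Hoxa to the Hoxc paralog in FPKM, on a log axis, for the 6 paralog numbers expressed in both clusters, with 1 symbol per library and the dashed line at equal levels. For paralogs 5, 9, 10 and 11 the 2 orange libraries of hypoxic differentiation medium lie above the rest, at 1.27 to 3.29.

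Noncoding genes of the clusters were followed beside the coding ones. Hoxa11os, the antisense RNA of Hoxa11, stood at 40.4 and 33.2 FPKM in normoxic growth medium, 6.80 and 5.76 in differentiation medium at 21% oxygen, 30.5 and 33.7 in hypoxic growth medium, and 31.2 and 28.4 in hypoxic differentiation medium. It fell on differentiation in normoxia (-2.37 ± 0.13, adjusted p 1.14e-05) and not past the threshold in hypoxia (-0.10 ± 0.13, adjusted p 0.556), with an interaction of 2.27 ± 0.18 (adjusted p 0.000127). The ratio of Hoxa11os to Hoxa11 was 1.54 to 1.68 in growth medium, 0.591 and 0.547 in normoxic and 0.992 and 0.923 in hypoxic differentiation medium. The 2 genes overlap, and although the libraries are stranded the use of strand in counting is not given, so reads of one could be counted for the other.

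Hotair, the long noncoding RNA between Hoxc11 and Hoxc12 known for its binding to Polycomb proteins, had 4.77 and 4.96, 1.81 and 1.70, 3.93 and 3.40, and 1.99 and 2.497 FPKM. It fell in normoxia (-1.09 ± 0.12, adjusted p 0.00025) and in hypoxia (-0.53 ± 0.12, adjusted p 0.014), with an interaction of 0.56 ± 0.17 (adjusted p 0.029). Hottip, at the Hoxa13 end, stayed at or below 0.117 FPKM. Hoxd3os1 and the microRNA genes Mir10a, Mir10b, Mir196a-1, Mir196a-2, Mir196b and Mir615 were listed at 0 in all libraries, and libraries of this kind do not measure mature microRNAs. Among the 19 expressed Hox genes 9 overlap another gene in RefSeq, and 3 (Hoxa3, Hoxa5 and Hoxa6) overlap another Hox gene, so part of their reads may be shared.

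Cofactors and regulators of Hox genes were read from lists chosen for their role. All 9 TALE cofactors were expressed, and on differentiation in normoxia 7 fell and 2 rose (median -0.58), beside 41.0% of all tested genes lower and 25.5% higher (median -0.20). Meis3 fell by 1.55 on the log2 scale in normoxia, and Pknox2 and Pknox1 rose by 0.96 and 0.50. In hypoxia 2 of the 9 fell and 0 rose, beside 17.6% and 23.3% of all tested genes, and the interaction called 4 higher and 1 lower, beside 35.4% and 18.7%.

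The list of 16 regulators of Hox expression mixes activators and chromatin factors with genes that act against an activator, such as Cyp26a1. Its counts are therefore not those of activators alone. Of its members 12 were tested, with 4 higher and 6 lower on differentiation in normoxia (median -0.56). Over all tested genes 25.5% were higher and 41.0% lower (median -0.20). The 10 of 12 members called compare with 66.5% of all tested genes called in either direction. Rarg, a retinoic acid receptor, had 125 and 96.7 FPKM in normoxic growth medium, 24.5 and 22.6 in differentiation medium at 21% oxygen, 134 and 141 in hypoxic growth medium, and 54.0 and 54.6 in hypoxic differentiation medium. Gmnn, a replication inhibitor that also binds Hox proteins, fell by 2.12 in normoxia and stood at 9.39 and 22.9 FPKM in the 2 hypoxic differentiation libraries. Cyp26a1, which degrades retinoic acid, had 3.88 and 4.44 FPKM in normoxic differentiation medium and at most 0.236 in the other libraries. Wdr5, a subunit of the complexes that methylate H3K4, rose by 0.65 in normoxia. In hypoxia 1 rose and 2 fell, 3 of 12 beside 40.9% of all tested genes in either direction, and the interaction called 7 higher and 2 lower, 9 of 12 beside 54.1%. Among 6 members of PRC2, which writes H3K27me3, and the demethylases that remove it, 1 rose (Kdm6b, 0.47) and 1 fell (Ezh1, -1.31) on differentiation in normoxia, 0 rose and 2 fell in hypoxia, and the interaction called 0 higher and 1 lower. These 2, 2 and 1 of 6 stand beside 66.5%, 40.9% and 54.1% of all tested genes called in either direction. Ezh2, the main methyltransferase of PRC2 in dividing cells, had 12.4 and 12.7, 7.07 and 7.08, 10.6 and 9.91, and 9.17 and 23.3 FPKM, with library B of hypoxic differentiation medium apart, and is named for its role after its values were seen.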

How the data were processed

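RNA-seq of C2C12 cells (8 of 24 samples) was analysed. The 8 H3K27me3 and 8 input libraries were not analysed here. The authors deposited 1 table of FPKM values per gene symbol. STAR 2.5.1b, Cufflinks 2.2.1 and mm9 are named in the submitters' processing notes, and RNA was total RNA in stranded libraries, per the labels' protocols. The annotation, the use of strand and any scaling between libraries are not given in the sources used here. Columns were matched to samples by their titles.

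Group means of at least 1 FPKM define expression. Values entered limma 3.58.1 (R 4.3.3) as log2(FPKM + 1), with a trended variance prior, for the 12389 genes with such a mean in at least 1 group. The fit holds 4 group means over 8 libraries, 4 residual and 2.61 prior degrees of freedom, and no block. Tests are two-sided, with Benjamini-Hochberg adjustment over all genes of a contrast and 0.05 as the threshold. A pseudocount of 1 understates changes of low genes. The fit was tested on simulated data with independent noise, where few genes were changed and in normoxic differentiation medium alone. The simulation did not copy the wide shifts of these data. The 39 Hox genes, 19 of which passed the filter, are all counted, and 1 of them and 1 cofactor are not reported here by name. Members and lists were chosen with earlier results of these data known. Of each other list, the genes called on differentiation in normoxia with the largest change are named, at most 2 in each direction. FPKM keeps no fragment totals, so depth is relative to the deepest library. Alternatives were other pseudocounts, filters, scalings, variance models and sets of libraries.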

Additional observations from a re-analysis of the deposited data

Results flagged for a closer look

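For 13 Hox genes the change on differentiation differed between 2% and 21% oxygen by a test of that difference, limma's interaction term, with an adjusted p under 0.05 over all tested genes. On the log2(FPKM + 1) scale the hypoxic change exceeded the normoxic one by 1.30 for Hoxa3, 2.17 for Hoxa5, 2.71 for Hoxa6, 1.13 for Hoxa7, 2.10 for Hoxa9, 1.85 for Hoxa10 and 1.64 for Hoxa11. In the Hoxc cluster the difference was 1.44 for Hoxc5, 2.26 for Hoxc6, 0.71 for Hoxc8, 0.66 for Hoxc9, 1.19 for Hoxc10 and 1.31 for Hoxc11. On the change to differentiation medium, values of Hoxa5, Hoxa6, Hoxa7, Hoxa9, Hoxa11 and Hoxc6 were called lower in normoxia and higher in hypoxia. The hypoxic rise of Hoxa6 was lost in 8 of 19 alternatives, and those of Hoxa5 and Hoxa9 in 4 of 19 each. The normoxic fall of Hoxa7 was lost in 2 of 19. Myog stood at 4.49 and 2.14 FPKM in hypoxic differentiation medium, against 2576 and 2642 in the normoxic one. Values of Hoxc9 and Hoxc10 were called lower in both, by less in hypoxia, but the hypoxic call of Hoxc9 was lost in 10 of 19 alternatives and its interaction in 7 of 18. For Hoxa3, Hoxa10, Hoxc5, Hoxc8 and Hoxc11 the fall was called in normoxia alone. The interaction of Hoxc8 was lost in 7 of 17 alternatives. The share of all tested genes with an interaction was 54.1%.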

How the results depend on the processing

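No Hox call changed direction under any alternative run, and 31 of 61 calls of a gene in a comparison passed the threshold in every setting tried for them. Of 1134 recomputed values, 99 kept their direction and lost the threshold, and the other 1035 kept both. Counts of called Hox genes moved over 1.5-fold in 3 comparisons. On differentiation in hypoxia 10 were called, 4 with only the libraries compared, 5 with array quality weights, 0 at a log2 change of at least 1, and 5 to 11 with each replicate left out. For hypoxia in growth medium 8 were called, 5 with a filter at 5 FPKM (which leaves 14 Hox genes to test, so that 3 of the 8 were not tested), 0 at a log2 change of at least 1, and 2 to 11 with each replicate left out. For hypoxia in differentiation medium 13 were called, 8 at a log2 change of at least 1, and 12 to 17 with each replicate left out. Differentiation in normoxia gave 15 to 18 and the interaction 11 to 15 with each replicate left out, where a lone library is assumed to vary like the other groups. Differences of A and B correlated between groups at -0.17 to 0.04, so no effect shared by the libraries of a letter was seen. This cannot settle whether the letters pair the samples. With the letter as a replicate block the counts were 17, 10, 9, 15 and 13, in the order of the 5 comparisons of the report. Among the alternatives, shares of all tested genes were counted for the scalings alone, and the causes of these shifts were not tested. Relative depth limits the silent genes, at 3 fragments per library.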

Other observations

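Genes that flank the clusters and other limb position factors gave a second view of the same libraries. Of 15 limb position factors 7 were tested, and on differentiation in normoxia 6 fell and 0 rose (median -1.09), beside 41.0% and 25.5% of all tested genes (median -0.20). Prrx2, a homeobox gene of limb mesenchyme, had 120 and 105 FPKM in normoxic growth medium, 10.1 and 7.79 in differentiation medium at 21% oxygen, 50.1 and 48.5 in hypoxic growth medium, and 10.2 and 13.9 in hypoxic differentiation medium, so that both differentiation media lay below both growth media. It fell by 3.52 in normoxia and by 1.96 in hypoxia on the log2 scale. Its relative Prrx1 had 60.7 and 74.1, 22.5 and 20.1, 49.5 and 43.3, and 50.7 and 33.0 FPKM, with a change of -1.61 in normoxia that passed the threshold and one of -0.17 ± 0.21 in hypoxia that did not (adjusted p 0.539). The interaction called 4 of the 7 higher and 0 lower, beside 35.4% and 18.7% of all tested genes.

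Of 13 genes that flank the 4 clusters 8 were tested. On differentiation in normoxia 4 rose and 1 fell (median 0.22), 5 of 8 beside 66.5% of all tested genes called in either direction. Snx10, a sorting nexin, rose by 0.87 and Cbx5, which encodes heterochromatin protein HP1 alpha, by 0.51, while Tax1bp1, an autophagy receptor, changed by -0.55. In hypoxia 3 rose and 1 fell, beside 23.3% and 17.6% of all tested genes, and for hypoxia in differentiation medium 2 were higher and 5 lower, beside 37.5% and 27.7%. No test compared the flanking genes with the Hox genes.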
